A study of Macaca mulatta with 28 samples.

Results

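The stathmin family in this series was 4 genes, STMN1, STMN2, STMN3 and STMN4, taken by symbol from a table of 16885 entries of gene symbol and transcript. STMN1 was chosen by its counts, selected on their split between drinkers and controls of cohort 1, so its values in every contrast that uses cohort 1 are a description without a test. The other 3 members entered by family name. Bulk RNA-sequencing had been done on punches of the VTA (ventral tegmental area), where the mesolimbic dopamine neurons of the midbrain have their somata, with 1 library from each of 28 adult male rhesus macaques of wild-type genotype. The 17 drinkers had been induced to drink 4% ethanol and had then had it freely available in 22-hour daily sessions for 12 months, followed by 3 abstinence periods of 30 days with 3 months of renewed access between them, and tissue was taken at the end of the last abstinence. The 11 controls were calorically yoked or housing controls, and the labels do not say which control was which. By the labels' drinking category there were 1 Low, 2 Binge, 5 Heavy and 9 Very Heavy drinkers. The animal numbers fall into a lower block, cohort 1, with 8 drinkers and 8 controls, and a higher block, cohort 2, with 9 drinkers and 3 controls. Single animals are named below as drinker 1 to 17 or control 1 to 11 in the order of the sample records, a number that only names them.

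Stathmins are small phosphoproteins that bind tubulin dimers, keep them out of the microtubule lattice and promote the shrinkage of microtubule ends. Phosphorylation by kinases such as the MAP kinases, CDK5 and PKA releases the tubulin. STMN1 is a cytosolic protein found in many cell types and enriched in dividing and immature cells, whereas STMN2, STMN3 and STMN4 carry a palmitoylated N-terminal extension that attaches them to Golgi and vesicle membranes and are known mainly from neurons, where they act in growth cones and axons.

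The table lists a single Ensembl transcript for each symbol, and what Salmon gave to a gene's other transcripts is missing from its value. These were ENSMMUT00000000943.4 for STMN1, ENSMMUT00000065676.2 for STMN2, ENSMMUT00000029969.4 for STMN3 and ENSMMUT00000026245.4 for STMN4. In the RefSeq annotation of Mmul_10, STMN1 lies at chr1:198894363-198900765 on the plus strand, where it shares bases with the long noncoding RNA gene LOC114673686. STMN2 lies at chr8:80065521-80120068 on the plus strand, STMN3 at chr10:98850151-98863296 on the minus strand and STMN4 at chr8:27504218-27525750 on the minus strand, and no other annotated gene overlaps these 3.

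The members are alike enough to be aligned over most of their coding sequence, which bears on whether a read could be counted for the wrong member. Between pairs of members 69.2% to 74.2% of aligned coding bases were identical, with the highest share for STMN1 and STMN2. The longest run of bases shared exactly by any pair of RefSeq mRNAs was 23, between STMN2 and STMN3. The 60 aligned coding bases below are those in which STMN1 and STMN3 are most alike within a single exon, exon 4 of each RefSeq transcript, shown to let the divergence at its smallest be seen. They come from chr1:198899690-198899749 on the plus strand and chr10:98852541-98852600 on the minus strand of Mmul_10 (RefSeq), are printed 5′ to 3′, and have the 13 differing bases in capitals.
STMN1: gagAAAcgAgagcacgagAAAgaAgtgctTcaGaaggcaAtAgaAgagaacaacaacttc
STMN3: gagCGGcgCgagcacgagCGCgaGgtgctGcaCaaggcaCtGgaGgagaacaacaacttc
The longest run that STMN1 and STMN3 share exactly anywhere in their mRNAs was 17 bases. STMN1 also has matches elsewhere in the genome, at chr11:32846089-32847070 with 86.9% identity over 1001 aligned bases and at chr5:135298590-135299469 with 82.2% identity over 923 aligned bases. RefSeq annotates the pseudogene LOC107000816 at the former, where the protein-coding genes ETFBKMT and AMN1 also lie, and the pseudogene LOC100424754 at the latter. Matches of at least 200 bases for the other members were found at their own loci only.

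The libraries held 12303976 to 27338712 estimated counts, and mitochondrial transcripts took 36.4% to 60.6% of them. The neuron markers of the punches were uneven. The summed level of the 9 tested markers of 11 ran from 3710 to 20000 CPM (counts scaled to a common library size), RBFOX3 was listed at 0 in 27 animals and SYT1 in 24, and the 13 dopamine neuron markers together ran from 47 to 1960 CPM. In a punch of mixed tissue, fewer cells of a type and less RNA per cell cannot be told apart. DPYSL2, a growth cone protein gene, and the astrocyte glutamate transporter gene SLC1A2 were listed at 0 in all 28 animals, so a 0 in this table is given below as listed and not as absence.

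The listed transcripts of the members spanned a wide range of abundance. Their own lengths could not be checked, so RefSeq mRNA lengths stand in for them. Per kilobase of the longest RefSeq mRNA, the median level over the 28 animals was 146 CPM for STMN4, 7.51 CPM for STMN2, 6.49 CPM for STMN3 and 2.60 CPM for STMN1. STMN4 was above all others by more than its own spread, from a lowest animal of 101 CPM per kilobase. STMN2 and STMN3 did not differ beyond theirs, since they ran from 0 to 51.7 and from 0 to 29.8 CPM per kilobase. STMN1 was the lowest member in median, except among cohort 1 drinkers, where its median of 8.67 CPM per kilobase was above those of STMN2, 6.16, and STMN3, 6.38. The coefficient of variation over animals, on CPM, was 20.3% for STMN4, 86.1% for STMN3, 86.7% for STMN1 and 100% for STMN2.

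**Figure D1:**
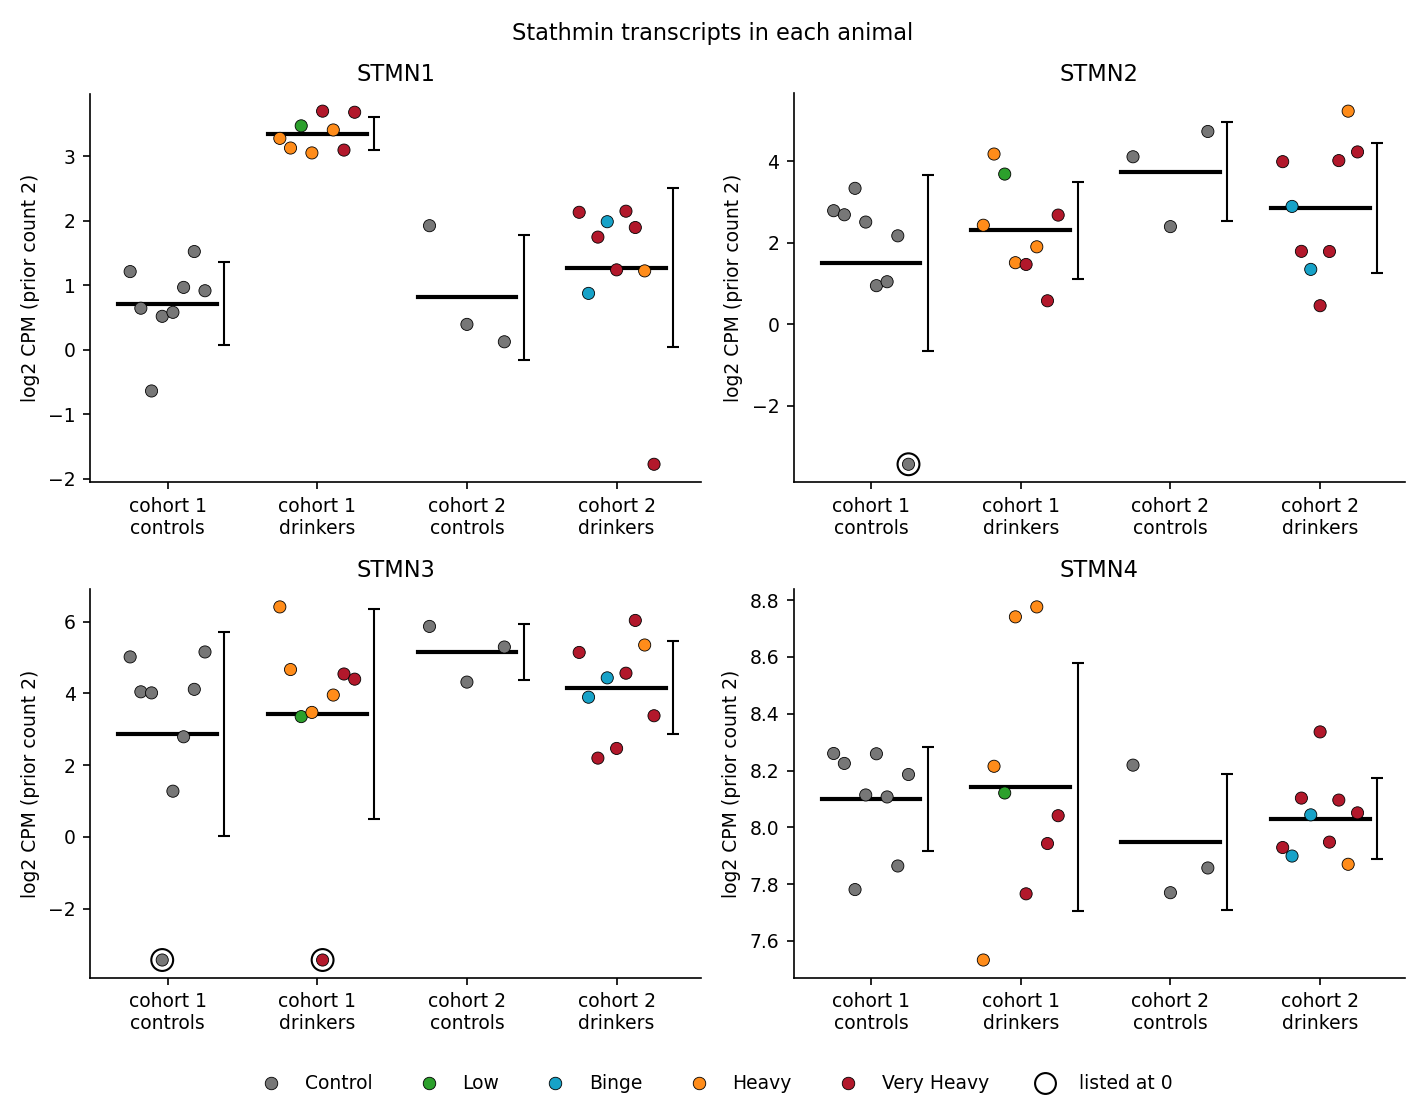
Each point is 1 animal and the vertical axis is log2 CPM with a prior count of 2, in a panel for each member, with colours for the drinking category. Horizontal lines are group means and vertical bars are 1 SD, and rings mark the 3 values listed at 0. The 8 cohort 1 drinkers sit above every other animal for STMN1, and for STMN2, STMN3 and STMN4 all 4 groups overlap.

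STMN1, the cytosolic member, was high in the cohort 1 drinkers and low everywhere else. In CPM, the lowest, median and highest cohort 1 drinkers were at 8.21, 10.1 and 12.9, against 0.549, 1.63 and 2.78 for the cohort 1 controls. The groups did not overlap, and the fitted difference of 2.61 on the log2 scale is a 6.11-fold higher level, given without a test because this contrast chose the gene. The estimated counts behind it were 163 to 262 in the drinkers and 14 to 66 in the controls. The animals on either side of the split were the Heavy drinker 5 at 8.21 CPM and control 7 at 2.78 CPM. Fitted on cohort 1 alone with each of its 16 animals left out in turn, the difference ran from 2.48 to 2.76 on the log2 scale. This range describes the values that chose the gene and is no support for the split.

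By the gap between the groups, the split that chose STMN1 was the widest of all transcripts tested. This rank describes the choice of the gene and is no further result. Of 13769 transcripts tested, 10 (0.0726%) had their lowest cohort 1 drinker above their highest cohort 1 control, and 15 (0.109%) had the reverse order. The distance between those animals was 1.53 on the log2 scale for STMN1. The next widest in that direction was 0.33, for TATDN1, a gene of the TatD deoxyribonuclease family, and the widest in the reverse direction was 0.32.

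The drinking categories overlapped in their STMN1 level within cohort 1. The 4 Heavy drinkers were at 8.21, 8.65, 9.62 and 10.5 CPM, the Low drinker at 11.0 CPM, and the 3 Very Heavy drinkers at 8.47, 12.8 and 12.9 CPM. The Low drinker, the animal of the lowest category, was thus inside the range of the Very Heavy drinkers. In cohort 2 the 2 Binge drinkers were at 1.74 and 3.87 CPM, the Heavy drinker at 2.24 CPM, and the 6 Very Heavy drinkers ran from 0.199 to 4.34 CPM with a median of 3.45. Every category of cohort 2 was below every drinker of cohort 1.

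In cohort 2, whose animals played no part in the choice of STMN1, the drinkers and controls overlapped. The 3 controls were at 0.997, 1.22 and 3.70 CPM, and the 9 drinkers had a lowest, median and highest level of 0.199, 3.27 and 4.34 CPM. Of the drinkers, 3 lay above the highest control and 1, the Very Heavy drinker 17 with 5 estimated counts, lay below the lowest. The log2 fold change was 0.54 ± 0.53 (SE) in edgeR's quasi-likelihood test, with an unadjusted p of 0.315 and an adjusted p of 1, and the interval of 2 SE on each side ran from -0.51 to 1.60. An exact permutation test of the mean log2 CPM, two-sided with n = 9 and 3, gave p = 0.564 and an adjusted p of 0.773 over the 7 member tests of this kind. None of the 13769 transcripts (0%) passed an adjusted p of 0.05 in edgeR in cohort 2, where 276 (2%) had an unadjusted p under 0.05, and DESeq2 called 54.

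A single control weighed heavily on that value. Without control 9, at 3.70 CPM, the log2 fold change of STMN1 in cohort 2 was 1.37, with an unadjusted p of 0.0394 and an adjusted p of 1 in edgeR's fit. Leaving out control 10 or 11 instead gave 0.29 and 0.22. The 2 cohorts' controls were close, since the cohort 2 controls were higher by 0.23 on the log2 scale, and this value turned to -0.59 without control 9. The drinkers of cohort 2 were lower than those of cohort 1 by a log2 difference of -1.84, and the drinker against control contrast was smaller in cohort 2 by -2.07, both without a test because cohort 1 chose the gene. The latter value was -1.24 without control 9 and -2.32 and -2.39 without control 10 and 11. Cell type markers moved in the same comparison of drinkers. The neuron markers summed to 4770 to 20000 CPM in cohort 1 drinkers and 3840 to 6080 CPM in cohort 2 drinkers, with a median log2 fold change of -0.61 and 2 of 9 lower at an adjusted p of 0.05 in edgeR. The oligodendrocyte precursor markers summed to 660 to 845 CPM and 798 to 1110 CPM, with a median of 0.53 and 2 of 7 higher, beside a median of 0.02 for all transcripts. Of all 13769 transcripts, 263 (1.91%) passed in either direction. The medians were 0.487 for immature neuron, 0.386 for astrocyte and 0.309 for endothelial markers. They were -0.495 for dopamine neuron, -0.08 for oligodendrocyte and -0.01 for microglia markers, and the blood marker tested was at -1.74. The part of these markers in the cohort difference was not tested. Cohort and drinking category cannot be fully told apart here, since the Binge animals were all in cohort 2 and 4 of the 5 Heavy animals in cohort 1.

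Over all animals STMN1 averaged 6.35 ± 4.12 CPM (SD, n = 17) in drinkers and 1.76 ± 0.882 CPM (SD, n = 11) in controls. The log2 fold change of 1.85 pooled cohorts in which the contrast was 2.61 and 0.54.

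Neuron markers were also uneven between the groups that STMN1 split. The 9 tested neuron markers summed to 4770 to 20000 CPM in cohort 1 drinkers and to 3710 to 10800 CPM in cohort 1 controls, and their median log2 fold change was 0.51, beside -0.01 for all transcripts, with 0 of 9 past an adjusted p of 0.05 in edgeR. Within the 8 cohort 1 drinkers, STMN1 and the neuron marker score (the mean z-score of the list) had Pearson's r = -0.404 and Spearman's rho = -0.405, with r = -0.254 without the 2 animals farthest in score. Within the 8 cohort 1 controls, r was -0.042 and rho 0.238, with r = 0.370 without the 2 farthest. These are descriptions without a test, since they rest on the values that chose STMN1. Markers of immature neurons, cells in which STMN1 is known to be high, summed to 9.25 to 20.2 CPM in cohort 1 drinkers and to 14.6 to 20.5 CPM in cohort 1 controls. Oligodendrocyte precursor markers summed to 660 to 845 CPM and 706 to 978 CPM in the same groups. The part of cell makeup in the level of STMN1 was not tested.

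STMN2, the member known as SCG10 that marks growing and regenerating axons, differed more between animals of a group than between groups. In CPM, cohort 1 drinkers had a lowest, median and highest level of 1.40, 4.48 and 18.1, and cohort 1 controls of 0, 5.02 and 10.04, with control 8 listed at 0. The 3 cohort 2 controls were at 5.19, 17.2 and 26.6 CPM and the cohort 2 drinkers had 1.28, 7.36 and 37.6 CPM as lowest, median and highest. Drinkers and controls overlapped in each cohort, and the highest animal, at 37.6 CPM, was the Heavy drinker 7.

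The log2 fold changes of STMN2 between drinkers and controls were 0.52 ± 0.70 (SE) in cohort 1 and -0.47 ± 0.90 (SE) in cohort 2, with edgeR adjusted p of 0.857 and 1. The cohort 1 value was 1.16 with limma-voom and, fitted on cohort 1 alone, ran from 0.10 without drinker 4 to 0.78 without control 3. The cohort 2 value ran from -0.89 without control 10 to 0.08 without control 11, so its direction rested on control 11. Neuron markers turned the same way as STMN2 and STMN3, with a median log2 fold change of 0.51 in cohort 1 and -0.33 in cohort 2, where they summed to 4890 to 10300 CPM in controls and 3840 to 6080 CPM in drinkers and 0 of 9 were called in edgeR. The part of neuron content in these values was not tested. In cohort 1, 132 of 13769 transcripts (0.959%) passed an adjusted p of 0.05 in edgeR, 52 higher (0.378%) and 80 lower (0.581%) in drinkers (55 and 49 with DESeq2's size factors in edgeR), and 0 of STMN2, STMN3 and STMN4 were among them. An unadjusted p under 0.05 was reached by 2023 transcripts (14.7%) and by none of these 3 members. The 132 calls became 5 when cohort 1 was fitted alone, and 10 without the 3 animals listed at 0 for STMN2 or STMN3. The difference between the cohorts' contrasts was -0.99 ± 1.14 (SE) for STMN2, with an adjusted p of 0.928 in edgeR (-1.97 with limma-voom, and from -1.41 without control 10 to -0.44 without control 11), where 2 transcripts (0.0145%) passed and 1325 (9.62%) were under 0.05 before adjustment. Among controls, STMN2 was higher in cohort 2 by 1.82 ± 0.88 (SE) on the log2 scale, with an unadjusted p of 0.0494 that became 1 after adjustment in edgeR. With a cohort 2 control left out it ran from 1.27 to 2.24, with an unadjusted p from 0.0299 to 0.233 in edgeR. Under the other tools, scalings and filters it ran from 1.81 to 2.56. No transcript (0%) passed in that comparison, where 463 (3.36%) had an unadjusted p under 0.05.

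STMN3, also called SCLIP, varied widely between animals. It was listed at 0 in control 4 and in the Very Heavy drinker 9 and reached 2092 estimated counts in the Heavy drinker 3. Its lowest, median and highest levels were 0, 18.2 and 84.9 CPM in cohort 1 drinkers and 0, 16.2 and 35.5 CPM in cohort 1 controls. The cohort 2 controls were at 19.8, 39.1 and 58.2 CPM, and the cohort 2 drinkers had 4.48, 21.5 and 65.3 CPM. The groups overlapped in each cohort.

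The log2 fold changes of STMN3 were 0.60 ± 0.77 (SE) in cohort 1 and -0.67 ± 0.98 (SE) in cohort 2, with edgeR adjusted p of 0.844 and 1. Fitted on cohort 1 alone, the value was 0.60 with all 16 animals and -0.06 without drinker 3, so its direction rested on that animal. With limma-voom the cohort 1 value was 1.16, and the cohort 2 value ran from -0.99 without control 10 to -0.26 without control 9. The animal listed at 0 for STMN2 was not one of those listed at 0 for STMN3, and control 8 was in fact the highest cohort 1 control for STMN3. Without all 3 of these animals, the cohort 1 log2 fold change was 0.46 ± 0.69 (SE) for STMN2 and 0.85 ± 0.61 (SE) for STMN3, with adjusted p of 0.917 and 0.694 in edgeR.

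STMN4, known as RB3 and restricted mainly to nervous tissue, was the abundant and steady member. Its lowest, median and highest levels were 185, 271 and 438 CPM in cohort 1 drinkers and 220, 284 and 306 CPM in cohort 1 controls. The cohort 2 controls were at 218, 232 and 298 CPM, and the cohort 2 drinkers had 234, 264 and 323 CPM. The cohort 1 drinkers spread over the whole range, because Heavy drinkers 5 and 6, at 428 and 438 CPM, were above all other animals and the Heavy drinker 3, at 185 CPM, was below all others.

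The log2 fold change of STMN4 was 0.09 ± 0.14 (SE) in cohort 1 and 0.07 ± 0.18 (SE) in cohort 2, with edgeR adjusted p of 0.873 and 1. The intervals of 2 SE on each side ran from -0.18 to 0.36 and from -0.29 to 0.44. For all animals together it was 0.05 ± 0.11 (SE), from -0.16 to 0.26, with an adjusted p of 1, and 0 of 13769 transcripts (0%) passed in that comparison, where 629 (4.57%) had an unadjusted p under 0.05 and DESeq2 called 11. Over all animals the log2 fold changes of STMN2 and STMN3 were 0.26 ± 0.58 (SE) and 0.13 ± 0.59 (SE), with an adjusted p of 1 each in edgeR, and were 0.75 and 0.69 with limma-voom. Between the cohorts' drinkers, where 263 transcripts (1.91%) passed and 2154 (15.6%) were under 0.05 before adjustment, STMN2, STMN3 and STMN4 did not, with adjusted p of 0.659, 0.992 and 0.642 in edgeR. Exact permutation tests of these 3 members within each cohort gave p from 0.273 to 0.804.

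**Figure D2:**
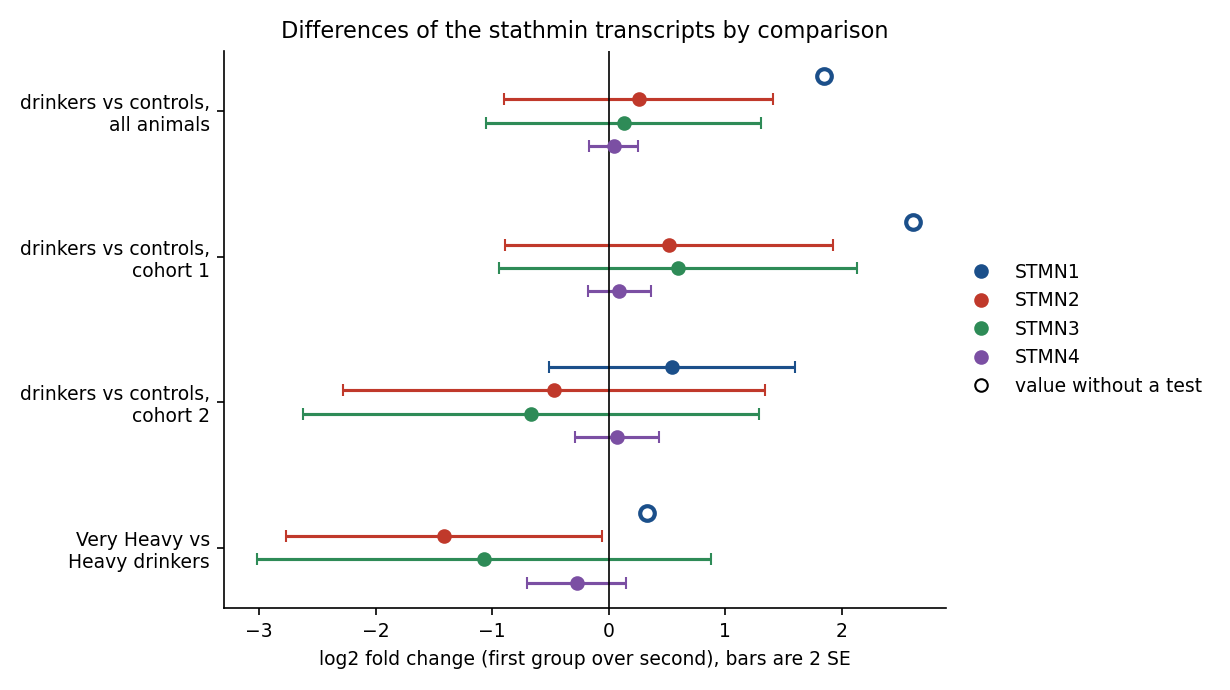
The horizontal axis is the log2 fold change of the first group over the second from edgeR, in rows for 4 comparisons, with bars of 2 SE. Open circles are STMN1 in the contrasts that use cohort 1 animals, at 1.85, 2.61 and 0.33, without an error or a test. The bars of STMN1 in cohort 2 and of STMN3 and STMN4 throughout cross 0, and the bar of STMN2 between Very Heavy and Heavy drinkers ends at -0.06.

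Among drinkers, the 9 Very Heavy animals were compared with the 5 Heavy animals with cohort as a covariate. STMN2 in Heavy drinkers was at 2.77, 3.65, 5.32 and 18.1 CPM in cohort 1 and at 37.6 CPM in cohort 2. In Very Heavy drinkers it was at 1.40, 2.68 and 6.33 CPM in cohort 1 and ran from 1.28 to 18.7 CPM in cohort 2, so the categories overlapped in cohort 1 and the Heavy animal of cohort 2 was above the 6 Very Heavy animals there. The log2 fold change was -1.42 ± 0.68 (SE), with an unadjusted p of 0.056 and an adjusted p of 0.973 in edgeR. With a Heavy animal left out it ran from -1.60 without drinker 5 to -0.94 without drinker 4, and the unadjusted p from 0.0388 to 0.265. Over the other alternatives it ran from -1.99 to -0.82. The corresponding values were -1.07 ± 0.97 (SE) for STMN3 and -0.27 ± 0.21 (SE) for STMN4, with adjusted p of 0.997 and 0.982 in edgeR. They ran from -1.25 to -0.44 and from -0.49 to -0.15 with a Heavy animal left out, and STMN3 was nearest to 0 without drinker 3. Over the other alternatives STMN3 ran from -1.73 to -0.76 and STMN4 from -0.285 to -0.197. STMN1 was at 0.33, without a test because 7 of these 14 drinkers were of cohort 1. No transcript of 12934 (0%) passed in this comparison, where 627 (4.85%) had an unadjusted p under 0.05 and DESeq2 called 93. The direction of STMN1 turned to -0.45 without the cohort covariate.

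Few relations between members were seen across animals. Of 9 relations between members, those of cohort 2 and those of cohort 1 without STMN1, 0 passed an adjusted p of 0.05. STMN2 and STMN3 had the strongest, with Pearson's r = 0.670 (permutation p = 0.0183, adjusted p = 0.165) and Spearman's rho = 0.566 (permutation p = 0.0591) over the 12 cohort 2 animals, and r = 0.607 without the 2 animals farthest from the median of STMN2. In the 16 cohort 1 animals the same relation was r = -0.0185 (permutation p = 0.934) and rho = 0.134 (permutation p = 0.620), with r = 0.192 without the 2 farthest.

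Of 21 relations of members with marker scores for neurons, dopamine neurons and oligodendrocytes, which leave out STMN1 in cohort 1, 0 passed an adjusted p of 0.05. STMN1 with the dopamine neuron score is given without a test in cohort 1, where r was -0.717 and rho -0.667 in the 8 controls, with r = -0.430 without the 2 farthest animals, and r was 0.327 and rho 0.262 in the 8 drinkers, with r = -0.634 without the 2 farthest. In cohort 2 the same relation was r = 0.052 (permutation p = 0.864) and rho = 0.343 (permutation p = 0.275), with r = 0.397 without the 2 farthest. STMN4 with the oligodendrocyte score had r = 0.708 (permutation p = 0.0103, adjusted p = 0.215) and rho = 0.573 (permutation p = 0.0566) in cohort 2, falling to r = 0.461 without the 2 farthest animals. In cohort 1 the values were r = 0.460 (permutation p = 0.0724) and rho = 0.609 (permutation p = 0.0140), with r = 0.378 without the 2 farthest. With the neuron score STMN4 had r = -0.548 (permutation p = 0.0278, adjusted p = 0.292) and rho = -0.585 (permutation p = 0.0193) in cohort 1, and r = -0.380 without the 2 farthest. In cohort 2 it had r = -0.461 (permutation p = 0.133), with rho = -0.329 (permutation p = 0.298). Leaving out the 2 farthest there turned r to 0.333. STMN2 and STMN3, the members known from neurons, had r = 0.440 (permutation p = 0.152) and r = 0.491 (permutation p = 0.105) with the neuron score in cohort 2, and rho = 0.483 (permutation p = 0.114) and rho = 0.545 (permutation p = 0.0706), with r = 0.429 and r = 0.440 without the 2 farthest. In cohort 1 they had r = 0.375 (permutation p = 0.153) and r = 0.242 (permutation p = 0.365), with r = 0.381 and r = 0.010 without the 2 farthest. Spearman's rho there was 0.221 for STMN2 (permutation p = 0.411) and 0.389 for STMN3 (permutation p = 0.138).

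**Figure D3:**
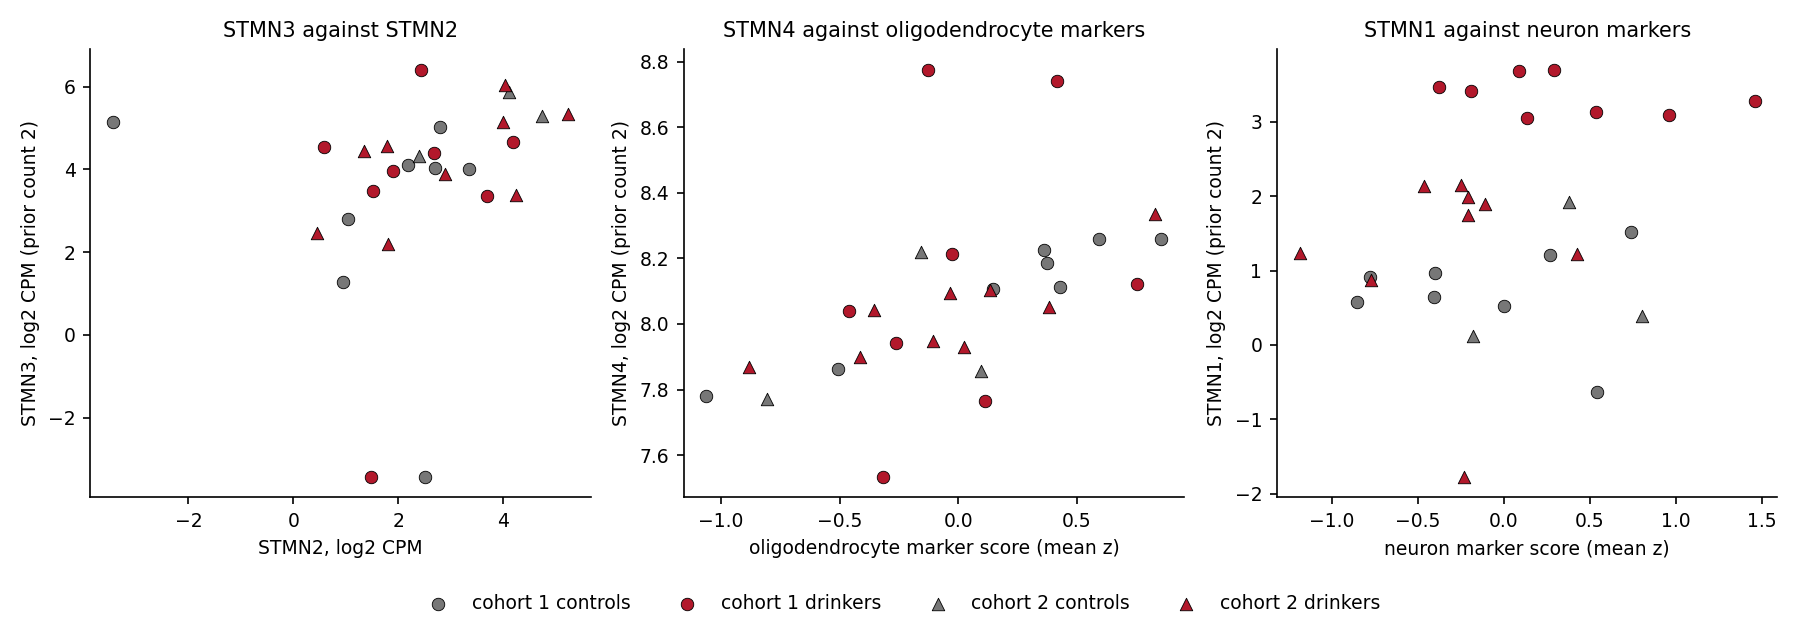
Each point is 1 animal, circles for cohort 1 and triangles for cohort 2, grey for controls and red for drinkers. The left panel plots log2 CPM of STMN3 against STMN2, the middle panel log2 CPM of STMN4 against the oligodendrocyte marker score, and the right panel log2 CPM of STMN1 against the neuron marker score, where scores are mean z-scores without a unit. The cohort 1 drinkers lie above all other animals in the right panel, at neuron scores from -0.376 to 1.46 against -1.19 to 0.803 for the others. The 3 animals listed at 0 stand apart in the left panel.

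The transcripts whose log2 CPM was most like each member's over the 28 animals were taken from 10446 transcripts with a mean of at least 1 CPM, as a description over points that share libraries. For STMN1, which falls into separate clusters, r is given only for deviations from the 4 group means of cohort and drinking. The 5 transcripts nearest to it over the 28 animals, a ranking in which its cohort 1 split takes part, were UBE2A, a ubiquitin-conjugating enzyme gene, with r = 0.64, SNX3, a sorting nexin gene, with 0.57, CCT6A, a subunit gene of the chaperonin that folds tubulin and actin, with 0.34, TATDN1 with 0.30, and NAE1, which encodes part of the NEDD8-activating enzyme, with 0.28. Ranked by the deviations instead, the nearest were UBXN11 with r = 0.74, FAM133B with 0.66, PTRHD1 and UBE2A with 0.64 each and GDE1 with 0.64, so UBE2A was in both rankings. For STMN4 they were JPH1, UAP1L1, SLC50A1, MBOAT1 and STAT2, with r from 0.69 to 0.73.

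For STMN2 and STMN3 the likeness rested in part on the animals listed at 0. The 5 nearest to STMN2 were AARSD1, KCNMA1, the gene of the BK potassium channel, GNPDA2, MAP2, the dendritic microtubule-associated protein gene, and NR1D2, with r from 0.66 to 0.72. Over the 25 animals with counts for all members, r was 0.60 for MAP2 and from 0.29 to 0.49 for the other 4. Among the 5 nearest to STMN3 were ATP6V0A1, a subunit gene of the vacuolar proton pump, NDRG3, PCNX1 and PHAX, and r over the 5 ran from 0.79 to 0.89. Over the 25 animals r was 0.66 for ATP6V0A1 and 0.60 for PHAX but 0.14 for NDRG3 and -0.25 for PCNX1.

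Stathmins act on tubulin, so 8 lists of other microtubule genes were examined beside them. Of 96 listed genes, 88 were in the table and 85 were tested. In cohort 1, 0 were higher and 1 was lower in drinkers in edgeR at an adjusted p of 0.05, near the background of 0.959% for all transcripts, and in cohort 2 none was called in either direction. The median log2 fold change of the 85 was -0.06 in cohort 1, beside -0.01 for all transcripts, and 0.01 in cohort 2, beside 0.01.

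The gene called was TPPP, which encodes the tubulin polymerization promoting protein of oligodendrocytes. It had 178, 214 and 279 CPM as lowest, median and highest in cohort 1 drinkers and 263, 287 and 319 CPM in cohort 1 controls. The ranges met in a narrow overlap. The log2 fold change was -0.44 ± 0.10 (SE) with an adjusted p of 0.029 in edgeR, and it stayed between -0.46 and -0.42 under the other tools, scalings and filters. The adjusted p was 0.123 when cohort 1 was fitted alone and 0.157 without the 3 animals listed at 0 for STMN2 or STMN3, and ran from 0.00189 to 0.216 over all alternatives. In cohort 2 TPPP was at 236, 274 and 345 CPM in controls and 227, 299 and 376 CPM in drinkers, with a log2 fold change of 0.08 ± 0.13 (SE), and the difference between cohorts had an adjusted p of 0.282 in edgeR. Of the oligodendrocyte markers, 7 of 11 were lower in cohort 1 drinkers with a median of -0.09, and of the precursor markers 6 of 7 with a median of -0.14, with 0 called in edgeR in either list. SOX10 was at -0.33, GPR17 at -0.43 and CSPG4 at -0.33, with unadjusted p of 0.00407, 0.00877 and 0.0173 in edgeR, and MBP at -0.33 with 0.0409. With the oligodendrocyte marker score as a covariate, TPPP was at -0.44 ± 0.10 (SE) with an adjusted p of 0.0325 in edgeR. That score leaves out the precursor markers, and the part of cell makeup in the level of TPPP was not tested.

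None of the 9 tested tubulins was called in edgeR's fit. TUBB4A, the most abundant tubulin of the lists and one known from oligodendrocytes, had a log2 fold change of -0.44 ± 0.12 (SE) in cohort 1 with an unadjusted p of 0.00103 and an adjusted p of 0.0711 in edgeR, and of 0.06 ± 0.16 (SE) in cohort 2. The cohort 1 call depended on the tool and filter, since the adjusted p of TUBB4A was 0.0109 with DESeq2, 0.0483 with limma-voom and 0.0482 in edgeR with at least 10 counts in every animal, and ran up to 0.328 over the other alternatives. Its lowest, median and highest levels were 2780, 3680 and 4410 CPM in cohort 1 drinkers and 3840, 4750 and 5720 CPM in cohort 1 controls. TUBB2B was at -0.11 in cohort 1 and 0.01 in cohort 2, TUBA8 at 0.28 and -0.44, and TUBA1A at 0.32 and -0.51. Tubulin genes are near-identical in long stretches, and how reads were split between them was not examined. The 4 tested alpha tubulins had a median of 0.21 in cohort 1 and -0.48 in cohort 2, and the 5 beta and gamma tubulins of -0.11 and 0.04.

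Structural and plus-end proteins gave mixed values. MAP1B, which stabilizes axonal microtubules, had a log2 fold change of 0.31 ± 0.15 (SE) in cohort 1 and -0.36 ± 0.20 (SE) in cohort 2, and MAP1A of -0.06 and -0.13. Of the 16 tested microtubule-associated proteins 5 had an unadjusted p under 0.05 in cohort 1, all of them lower in drinkers, where 14.7% of all transcripts had one in either direction. They were TPPP, TPPP3 at -0.44 ± 0.14 (SE), MAP1S at -0.32 ± 0.10 (SE), MAP7 at -0.32 ± 0.15 (SE) and MAP6, and the adjusted p of the last 4 ran from 0.11 to 0.338 in edgeR. The median of the 16 microtubule-associated proteins was -0.21 in cohort 1 and 0.02 in cohort 2. In that list MAPT, the tau gene, was listed at 0 in 8 animals and MAP6 in 20. MAPRE2 and MAPRE3, which bind growing plus ends, were at 0.06 and 0.28 in cohort 1 and at -0.06 and -0.14 in cohort 2, in a list of 10 whose median was 0.00 and 0.19.

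Factors that sever or depolymerize microtubules, as stathmins do by another route, were represented by KIF2A, a depolymerizing kinesin gene, at 0.17 and -0.21 in cohorts 1 and 2. Their 8 genes had medians of 0.06 and 0.09. The tubulin folding cofactor genes TBCB and TBCD were at -0.23 and -0.17 in cohort 1 and at 0.00 and 0.19 in cohort 2, and their list of 14 had medians of -0.07 and -0.03. Of the kinases and phosphatases known to act on stathmins, MAPK3, which encodes ERK1, was at -0.16 and 0.02, and CDK5R1, the gene of the CDK5 activator p35, at 0.00 and -0.04, with list medians of -0.06 and -0.05 over 17 genes. None of these passed an adjusted p of 0.05 in edgeR.

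Growth cone genes, among which STMN2 is usually counted, were not called. GAP43, a growth cone phosphoprotein gene, had 176, 347 and 636 CPM as lowest, median and highest in cohort 1 drinkers and 202, 344 and 641 CPM in cohort 1 controls, with a log2 fold change of 0.01 ± 0.21 (SE). UCHL1, a neuronal deubiquitinase gene, was at 0.25 in cohort 1 and -0.46 in cohort 2, and MARCKSL1 at -0.22 and 0.12. TARDBP, the gene of the RNA-binding protein TDP-43 on which correct splicing of STMN2 depends, was at 0.05 ± 0.07 (SE) in cohort 1 and 0.18 ± 0.10 (SE) in cohort 2. The 11 tested genes of this list had medians of -0.12 and 0.12, with 0 called in either cohort.

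**Figure D4:**
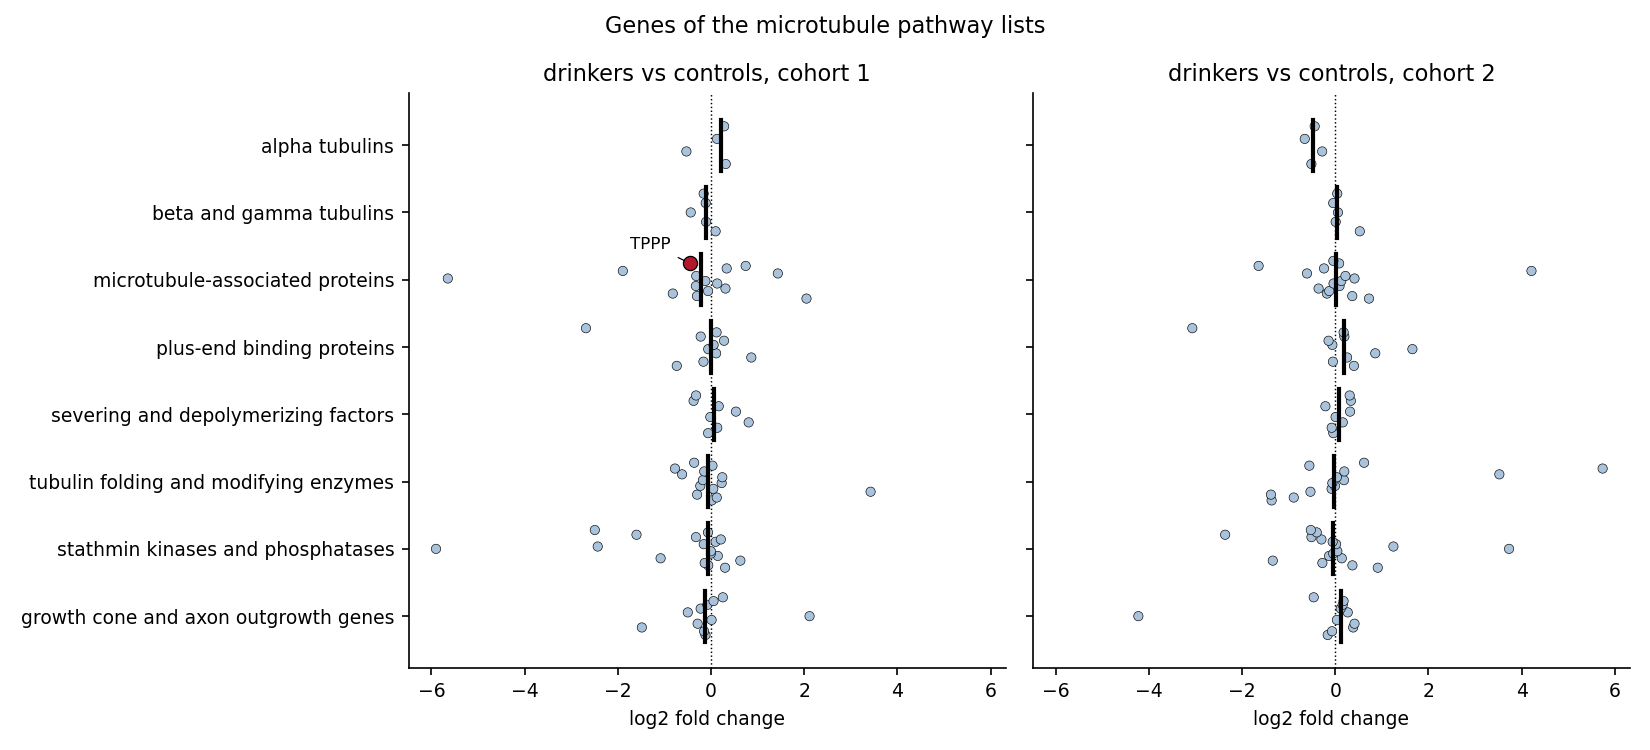
Each point is a gene of 1 of 8 microtubule lists and the horizontal axis is its log2 fold change between drinkers and controls, with cohort 1 in the left panel and cohort 2 in the right. Vertical ticks are list medians, and the red point is TPPP, at -0.44, the gene that passed an adjusted p of 0.05 in cohort 1 in edgeR. The medians lie between -0.21 and 0.21 in cohort 1 and between -0.48 and 0.19 in cohort 2.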

How the data were processed

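RNA from VTA punches of 28 macaques was sequenced with paired-end reads with 1 library per animal. The authors trimmed reads with Trim Galore 0.6.7, quantified them with Salmon 1.9.0 against Mmul_10 and deposited estimated counts that were not normalized (the annotation release and strand setting are not given in the sources used here). The entry without a symbol (1.16e-05% of counts) was left out. Groups, drinking categories and animal numbers came from the sample labels, and all columns matched an animal by name. Libraries were compared pairwise and none was a copy of another.

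Counts were rounded, a transcript entered the fit if it reached 5 counts in 3 or more animals (13769 of 16885), and edgeR 4.0.16 (TMM, quasi-likelihood test, R 4.3.3) was fitted with a mean for each of the 4 cohort-by-group cells, with Benjamini-Hochberg adjustment over all transcripts at 0.05. The comparison of all animals had 2 groups and that of drinking categories had cohort as a covariate. The SE is the log2 fold change divided by the square root of F. With 1 library per animal, p-values measure the spread between animals. Low counts limit STMN1, STMN2 and STMN3. CPM used TMM library sizes, with a prior count of 2 on the log2 scale. DESeq2 1.42.0, limma 3.58.1 (voom), other scalings and filters, covariates, and animals left out were the alternatives. Correlations used 100000 permutations and member tests all regroupings, in scipy 1.17.1. The edgeR step was tested on simulated data. Sequences, gene positions and mRNA lengths came from RefSeq for Mmul_10, and matches in the genome from blastn. Coding identity used the RefSeq transcript with the shortest coding sequence of each gene.

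The members and lists were chosen with earlier results of these data known. Named were the 4 members, the 5 transcripts most like each over 28 animals, and of each pathway list the 2 with the highest mean count and those past 0.05 between drinkers and controls. SOX10, GPR17, CSPG4, MBP, TPPP3, MAP1S, MAP7, UBXN11, FAM133B, PTRHD1, GDE1, GAP43, TARDBP, MAPT, MAP6, DPYSL2 and SLC1A2 were added after their values were seen. The values of 2 genes that this rule names are not reported here.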

Additional observations from a re-analysis of the deposited data

Results flagged for a closer look

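In 10 groups of 8 or 9 animals, which leave out STMN1 in cohort 1, 5 extreme animals stood apart on log2 CPM by Dixon's ratio of the gap to the range, where chance alone would mark about 1 in 20 groups. The 4 low ones had 0 to 5 estimated counts.

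For STMN1, drinker 17 was the lowest of the 9 cohort 2 drinkers with a ratio of 0.675 and log2 CPM of -1.78. Without drinker 17 the cohort 2 difference of STMN1 was 0.70 on the log2 scale, with an unadjusted p of 0.0966 and an adjusted p of 1 in edgeR. For STMN2, control 8, listed at 0, was the lowest cohort 1 control with a ratio of 0.647. For STMN3, drinker 9 and control 4, both listed at 0, were the lowest of their cohort 1 groups with ratios of 0.689 and 0.548. For STMN4, drinker 14 was the highest of the cohort 2 drinkers with a ratio of 0.499 and log2 CPM of 8.34.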

How the results depend on the processing

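STMN2, STMN3 and STMN4 stayed short of an adjusted p of 0.05 in all comparisons under every alternative that gave them an adjusted p. STMN1 did so in cohort 2. With at least 10 counts asked of every animal, STMN1, STMN2 and STMN3 dropped out and gave no value. Low counts, and a cohort 2 with 3 controls, limit precision. The animals left out of cohort 1 one at a time, the 3 animals listed at 0 and drinker 17 were chosen after seeing the data. No paired analysis was possible because the labels give no shared replicate numbers and do not name the yoked pairs.

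Counts of called transcripts moved with the tool, the filter and the animals in the fit. DESeq2 called 11 over all animals, 429 in cohort 1, 54 in cohort 2, 129 for the difference between cohorts, 66 and 641 between the cohorts' controls and drinkers, and 93 between Very Heavy and Heavy drinkers. With limma-voom, 3 were called in cohort 2 and 1 between the cohorts' controls. With at least 10 counts in every animal, 426 were called between the cohorts' drinkers. In cohort 1 the count was 5 fitted alone, 1 to 4 fitted alone with an animal left out, and 10 without the 3 animals listed at 0. With 1 control left out, the difference between cohorts had 0 to 4 calls, and with 1 Heavy drinker left out the drinking categories had 0 to 5, the highest without drinker 7.

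Some directions turned. The difference of STMN4 between cohorts was 0.029 with limma-voom, 0.001 without mitochondrial transcripts and -0.11 to 0.13 with a control left out. With an animal left out, the cohort 1 values ran from -0.056 to 0.888 for STMN3 and -0.007 to 0.172 for STMN4 (-0.003 without drinker 5), the cohort 2 values from -0.894 to 0.078 for STMN2, -0.016 to 0.223 for STMN4 and -0.035 to 0.251 for TPPP, and STMN1 between the cohorts' controls from -0.59 to 0.55. STMN1 between drinking categories was -0.45 without the cohort covariate. On variance stabilized counts, r turned to 0.0762 for STMN2 with STMN3 and -0.163 for STMN3 with STMN4 in cohort 1, to 0.143 for STMN2 with dopamine neurons in cohort 1, and to 0.0536 for STMN1 with neurons in cohort 1 controls. The cause was not tested.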

Other observations

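STMND1, a gene whose protein carries a stathmin domain and which was not counted as a member, was at the edge of detection. Its listed transcript had 0 to 55 estimated counts and a median of 0.960 CPM over the 28 animals. The lowest, median and highest levels were 0.260, 0.828 and 1.76 CPM in cohort 1 drinkers and 0, 0.911 and 1.56 CPM in cohort 1 controls, so it did not share the split of STMN1. The cohort 2 drinkers ran from 0.554 to 2.71 CPM and the cohort 2 controls were at 0.610, 0.890 and 2.28 CPM. Of the 9 marker lists examined for cell types, 0 genes passed an adjusted p of 0.05 between drinkers and controls in either cohort in edgeR. Over all 13769 transcripts the share was 0.959% in cohort 1 and 0% in cohort 2, so this count does not set the markers apart.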
